A study of Mus musculus with 6 samples.

Results

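The lysyl oxidases and the elastic fibre genes form a group of 10 genes among the 24982 listed in the coverage files: the lysyl oxidases *Lox*, *Loxl1*, *Loxl2*, *Loxl3* and *Loxl4*, and the fibre genes *Eln*, *Fbn1*, *Fbn2*, *Fbln5* and *Emilin1*. They were chosen from the readout itself, because *Lox* is listed at 0 in the libraries of 1 cell line only. The difference between the lines in these genes is therefore given as a description, with no p-value. RNA-seq was run on 2 murine keratinocyte lines of strain C57BL/6 that go back to neonatal skin and received no treatment. KSFM-Ca2+ cells were derived and kept in a keratinocyte serum-free medium of low calcium. DKSFM cells came from KSFM-Ca2+ cells that were moved to defined keratinocyte serum-free medium, which holds more calcium, and most cells died before survivors grew out. The lines therefore differ in medium, in calcium and in that selection at once, and these cannot be told apart. There were 3 libraries of each line, and whether they came from separate cultures is not given in the sources used here, so the p-values below measure only the spread between these libraries, which may be technical. The listed coverage, summed over all genes, was 1601676, 1238411 and 1057750 in the KSFM-Ca2+ libraries and 1174348, 1239438 and 1170675 in DKSFM replicates 1 to 3.

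Lysyl oxidases are secreted, copper-dependent enzymes that oxidise lysine residues of collagen and tropoelastin, the first step of the covalent cross-links that make these fibres stiff and insoluble. Elastic fibres have a core of cross-linked elastin on a scaffold of fibrillin microfibrils, and fibulins and emilins join the 2 during assembly. In skin these fibres lie in the dermis and are mostly made by fibroblasts, while keratinocytes make the collagen IV of the basement membrane on which they sit.

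The DKSFM cells expressed *Lox* and *Loxl4*, and the KSFM-Ca2+ cells expressed little of either. *Lox* encodes the founding member of the family, and lies on chromosome 18 from 52516067 to 52529867 on the minus strand (GRCm38). Its listed mean read coverage per base was 0 in each KSFM-Ca2+ library, and 331.5, 353.3 and 349.8 in DKSFM replicates 1 to 3. The lines did not overlap, and the DKSFM libraries lay close together, at a normalized coverage of 359 ± 10.3 (SD, n = 3). No fold is given for *Lox*, since 1 line is listed at 0; if coverage is read bases over the longest transcript, which the sources used here do not state, each 0.1 of its listed value stands for about 5.58 reads. The normalized level of *Lox* in the DKSFM cells was above that of 95.3% of the 12450 genes that passed the filter on low values. In bulk libraries, fewer cells with a transcript and less transcript per cell cannot be told apart.

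*Loxl4*, which encodes a paralog with scavenger receptor domains ahead of the catalytic domain, lies on chromosome 19 from 42593982 to 42612813, also on the minus strand. It was listed at 1.2, 1.3 and 1.1 in KSFM-Ca2+ replicates 1 to 3, and at 32.2, 38.8 and 35.5 in the DKSFM replicates. All 3 DKSFM libraries were far above all 3 KSFM-Ca2+ libraries. Normalized coverage of *Loxl4* was 1.16 ± 0.213 in the KSFM-Ca2+ cells and 36.9 ± 2.38 in the DKSFM cells (SD, n = 3), a ratio of 31.7. On the scale of log2(normalized coverage + 0.1), which understates the change of genes with low coverage, the difference was 4.88 (SE 0.13), and with a pseudocount of 1 in place of 0.1 it was 4.13. Its level moved from above 10.3% to above 59.1% of the tested genes.

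The other lysyl oxidases were at or next to 0. *Loxl1*, the enzyme linked most closely to elastin, and *Loxl2* were listed at 0 in all 6 libraries. *Loxl3* was listed at 0.1 in KSFM-Ca2+ replicate 2 and at 0 in the other 5. The summed listed coverage of the 5 lysyl oxidases was 1.2, 1.4 and 1.1 in KSFM-Ca2+ replicates 1 to 3, nearly all of it *Loxl4*. In the DKSFM replicates the sum was 363.7, 392.1 and 385.3, of which *Lox* made up 91.2%, 90.1% and 90.8%. The family total thus went from a trace of *Loxl4* to mostly *Lox*.

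No stretch as long as a read, 85 bases, was identical between any pair of the family's transcripts. In the 10 pairs of family transcripts, the most alike ungapped windows of 85 bases differed by 8 (*Lox* and *Loxl1*) to 27 bases (*Lox* and *Loxl4*), and the longest exact run shared by a pair was 11 to 32 bases. The windows of *Loxl2* and *Loxl4* are shown because *Loxl2* was at 0 in the libraries in which *Loxl4* was high. They differ by 10 bases, in capitals, and lie in the coding sequence of the histidine-rich stretch that binds copper. The *Loxl2* window spans exons 10 to 11 at chr14:69682316-69689089 on the plus strand, and that of *Loxl4* exons 11 to 12 at chr19:42598755-42599899 on the minus strand (GRCm38), each written in the direction of transcription.
Loxl2: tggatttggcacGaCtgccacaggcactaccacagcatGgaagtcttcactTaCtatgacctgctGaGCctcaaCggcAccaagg
Loxl4: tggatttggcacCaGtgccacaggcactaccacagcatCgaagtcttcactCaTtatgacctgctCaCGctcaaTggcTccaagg

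The elastic fibre genes themselves were at or near 0 in both lines. *Eln*, which encodes tropoelastin, and the fibrillin genes *Fbn1* and *Fbn2* were listed at 0 in all 6 libraries. For the long *Fbn1* transcript each 0.1 of listed coverage would on the same reckoning stand for about 14.1 reads, and for *Eln* for about 4.53. *Fbln5*, whose product joins elastin to microfibrils, was listed at 0.1, 0 and 0 in KSFM-Ca2+ replicates 1 to 3 and at 0.3, 0.4 and 0.3 in the DKSFM replicates. *Emilin1*, which encodes a glycoprotein at the face between elastin and microfibrils, was listed at 0, 0.1 and 0 and at 0.2, 0.1 and 0.1. The lines did not overlap in *Fbln5*, at a coverage of a few rounding steps, and they overlapped in *Emilin1*.

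**Figure D1:**
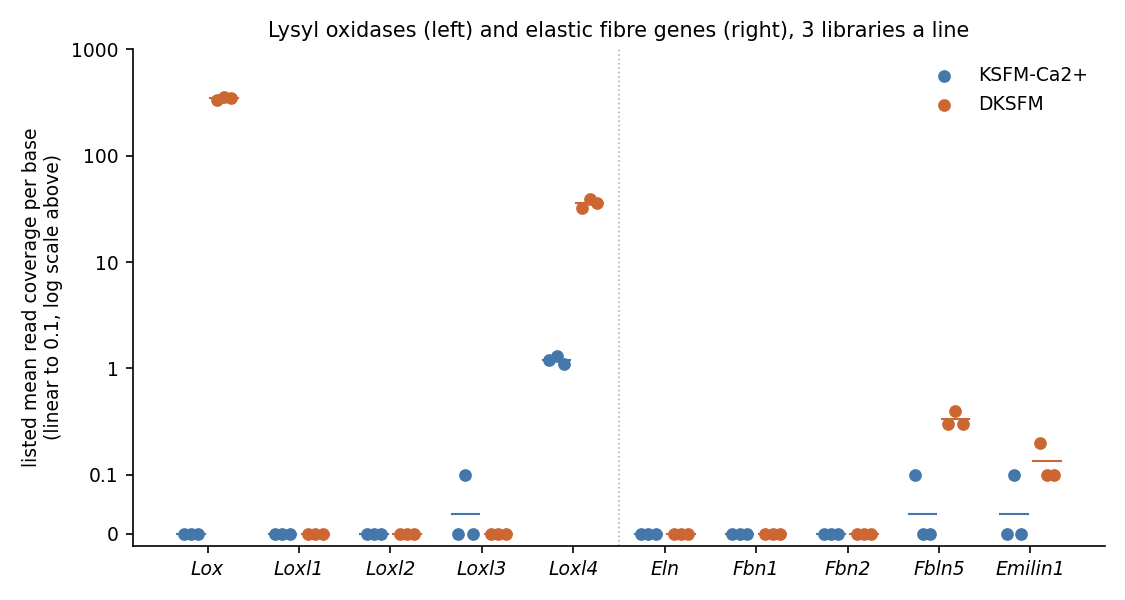
Listed mean read coverage per base of the 10 genes on an axis that is linear to 0.1 and logarithmic above, with 1 point per library and a bar at the mean of 3 libraries. *Lox* is at 0 in the KSFM-Ca2+ libraries and between 331.5 and 353.3 in the DKSFM libraries, *Loxl4* rises from about 1 to above 32, and the other 8 genes stay at 0.4 or below.

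In order of level in the DKSFM cells, *Lox* came first, then *Loxl4*, *Fbln5* (0.346 ± 0.0472) and *Emilin1* (0.140 ± 0.0633), each apart from the next by more than its spread, and the other 6 were at 0. In the KSFM-Ca2+ cells *Loxl4* came first, and *Loxl3*, *Emilin1* and *Fbln5*, at means of 0.0328, 0.0328 and 0.0255, could not be set apart from each other or from 0. Of the 10 genes, 2 (*Lox* and *Loxl4*) reached a normalized coverage of 0.5 in 3 or more libraries, which was the filter, and 8 did not. The libraries of the lines did not overlap in either gene, and 41.4% of the tested genes were likewise higher in DKSFM without overlap. By the rule used below for other genes, at least 2-fold with an adjusted p under 0.01 in limma, 13.3% of the 12450 tested genes were higher and 10.5% lower. Since the 10 genes were picked from this contrast, nothing is read from these counts.

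Of 12 genes often used as references, 11 were above 1 in every library, with a lowest listed value of 15.4 among these 11. They were not all steady between the lines. *Actb* and *B2m* passed the rule for lower in DKSFM (log2 fold changes -1.002 and -1.62, adjusted p 5.81e-06 and 2.77e-08, limma), and none passed it for higher. Of all genes in the files, 393 were listed at 0 in each KSFM-Ca2+ library and above 0 in each DKSFM library. *Lox* had the highest level among them. In 120 of them the mean normalized coverage in the DKSFM cells reached 1, in 34 it reached 10, and in 6 it reached 100. The reverse pattern, at 0 in each DKSFM library and above 0 in each KSFM-Ca2+ library, held for 246 genes, of which 50 reached 1 and 6 reached 10 in the KSFM-Ca2+ cells.

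The 5 genes nearest to *Lox* in this pattern, by the mean of log2(normalized coverage + 0.1) over the 3 DKSFM libraries, were *Rtl3*, *Emb*, *Mtus1*, *Bbox1* and *Sptlc3*. *Rtl3*, a gene derived from a retrotransposon, had 284 ± 0.316 in the DKSFM cells, 0.34 below *Lox* on the log2 scale. *Emb*, which encodes the transporter chaperone embigin, had 244 ± 11.4, at a distance of 0.56. *Mtus1* followed with 134 ± 2.22, *Bbox1*, the last enzyme of carnitine synthesis, with 119 ± 4.07, and *Sptlc3*, a subunit of serine palmitoyltransferase, with 108 ± 4.90. No other gene of the 393 reached 100.

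**Figure D2:**
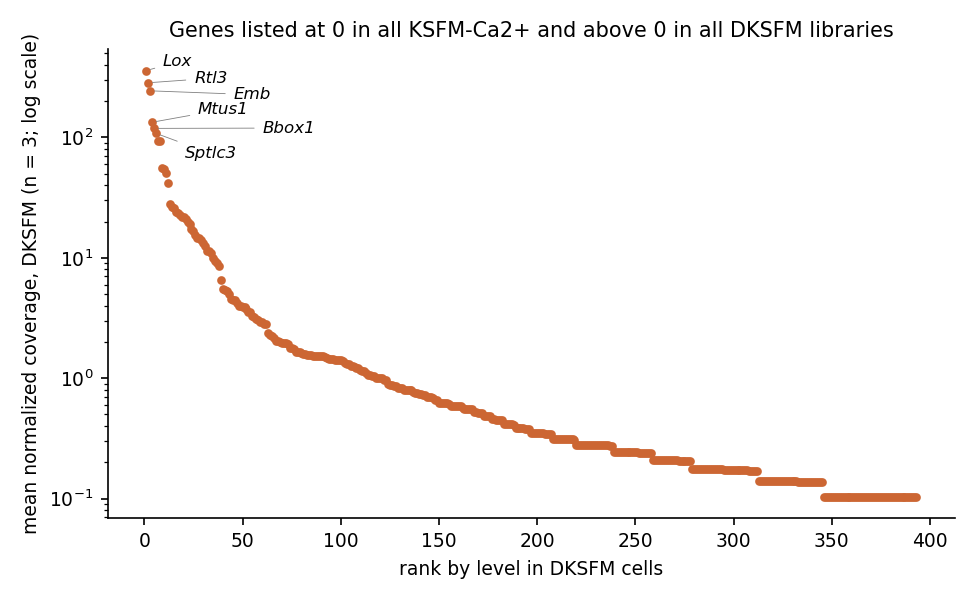
Mean normalized coverage in the DKSFM libraries (n = 3, log scale) of the 393 genes listed at 0 in all KSFM-Ca2+ libraries and above 0 in all DKSFM libraries, in falling order. *Lox* is at the top with 359, and most of the 393 genes lie below 1.

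Among the genes nearest to *Lox* and *Loxl4*, those that were tested changed by less than 2-fold or missed the threshold. Most of these near genes were not tested, as they were listed at 0.8 or below in every library. Of the 24490 genes with a known position, none overlaps either gene. *Srfbp1*, the nearest to *Lox* at 24136 bases and on the opposite strand, was at a normalized level of 39.1 ± 1.14 in KSFM-Ca2+ and 30.7 ± 2.59 in the DKSFM cells (SD, n = 3), a log2 fold change of -0.35 (adjusted p 0.00105, limma; 0.0418 with only the libraries named combined, 1 of KSFM-Ca2+ and 3 of DKSFM). *R3hcc1l*, 1639 bases from *Loxl4* and also on the opposite strand, had 12.6 ± 0.164 and 13.97 ± 0.771, a log2 fold change of 0.15 that missed the threshold of 0.01 (adjusted p 0.049, limma). Of the 61 tested genes in a window of 20 Mb around *Lox*, 4 were called higher in DKSFM and 12 lower, and the window had a median log2 fold change of -0.32. Around *Loxl4*, 12 of 127 were higher and 16 lower, with a median of -0.16, beside 0.00235 over all 12450 tested genes, of which 13.3% were higher and 10.5% lower. More genes were lower than higher also around *Loxl1* (23 and 9), *Loxl2* (19 and 11), *Fbn1* (28 and 15) and *Fbn2* (13 and 5). *Fbn2* lies on chromosome 18 like *Lox*, and the windows of these genes overlap. More were higher around *Loxl3*, *Eln*, *Fbln5* and *Emilin1*.

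The other genes of lysyl oxidase biology were read from lists by role, 133 partner genes in all. Of these, 90 were tested, 28 (31.1%) were called higher in DKSFM and 8 (8.89%) lower, past 2-fold and an adjusted p of 0.01 in limma, beside 13.3% and 10.5% of all tested genes. With a filter of 0.5 in every library, which drops genes that are low in 1 line, 17 partner genes and 1035 of 11124 genes were higher. How many partner genes were tested under this filter is not given, so their share cannot be set beside that of all genes. Folds of genes that are low in 1 line depend on the pseudocount of 0.1, and are given also with a pseudocount of 1 and with only the combined libraries where these moved them by over 1.5 times. The lists were drawn up with earlier results known, so these shares are given as a description.

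The microfibril and elastic fibre assembly list held 15 tested genes of 32, with 6 higher, 0 lower and a median log2 fold change of 0.17. These include *Mfap1a*, *Mfap1b*, *Mfap3* and *Mfap3l*, whose role in these fibres was not checked. In limma, 5 of the 15 were lower at an unadjusted p under 0.05, beside 5102 of all 12450 tested genes. *Fbln1*, which encodes a fibulin of basement membranes and elastic fibres, was listed at 0.1, 0.1 and 0.2 in KSFM-Ca2+ replicates 1 to 3 and at 40.2, 42.3 and 41.6 in the DKSFM replicates. That is a log2 fold change of 7.57 (SE 0.22, adjusted p 2.5e-08, limma) between lines that did not overlap, and it was 5.28 with a pseudocount of 1 and 6.98 with the combined libraries. *Efemp2*, whose product fibulin-4 brings lysyl oxidase to tropoelastin, was listed at 0.4, 0.5 and 0.1 and at 2.1, 1.7 and 2.6, a log2 fold change of 2.61 (SE 0.37, adjusted p 0.000224, limma) that was 1.30 with a pseudocount of 1 and 3.35 with the combined libraries. *Ltbp1*, which encodes a binding protein that holds latent TGF-beta on microfibrils, rose from a normalized coverage of 74.2 ± 2.13 to 178 ± 5.12 (log2 fold change 1.26, adjusted p 1.96e-08, limma). *Adamtsl4*, *Adamtsl5* and *Mfap3l* were the other 3 that were higher. *Fbln2*, another fibulin, was lower by less than 2-fold, at 320 ± 8.15 and 194 ± 11.0 (log2 fold change -0.72, adjusted p 1.37e-06, limma). In the DKSFM cells *Fbln2*, *Ltbp1* and *Adamtsl5* had the highest levels of the list, with *Adamtsl5* at 89.04.

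The promoters of *Loxl4* and *Fbln1*, which were both high in the DKSFM cells, and of *Fbn1*, at 0 in both lines, are shown for comparison, and were picked after the values were seen. RefSeq windows (GRCm38.p6) from 250 bases before to 50 bases after the start were at hand for 4 of the 10 genes, *Loxl4*, *Fbn1*, *Fbln5* and *Emilin1*. Both strands were searched for AP-1 (TGANTCA), the hypoxia response element (ACGTG), the Smad motif (CAGAC), Sp1 (GGGCGG), the E-box of Snail and Zeb (CAGGTG) and the TATA box (TATAAA). Of all 32841 windows, 7.81% hold the AP-1 letters, 19.6% those of the hypoxia element, 49.6% Smad, 35.7% Sp1, 20.2% the E-box and 13.6% the TATA box. The *Loxl4* window, chr19:42612757-42613056 on the minus strand, has a GC content of 75%, above 96.1% of windows, and holds 3 Sp1 matches and 1 Smad match. *Fbln1* has 2 overlapping windows, and the first, chr15:85205699-85205998 on the plus strand, has a GC content of 51.7% and holds 3 matches of the hypoxia element, of which 2 overlap on opposite strands, and 2 of Smad. The second, chr15:85205758-85206057, is not printed; it has a GC content of 64%, holds the same matches and adds 2 of Sp1. The *Fbn1* window, chr2:125506389-125506688 on the minus strand, has a GC content of 60.3% and 1 Sp1 match. The windows of *Emilin1* and *Fbln5*, genes near 0 in both lines, are not printed. That of *Emilin1* holds 2 Smad matches. Of the 2 *Fbln5* windows, 1 holds 2 Smad matches, and the other holds 1 of Smad and 2 of Sp1. Capitals mark the matches, which are descriptions of the letters and not of binding.
Loxl4: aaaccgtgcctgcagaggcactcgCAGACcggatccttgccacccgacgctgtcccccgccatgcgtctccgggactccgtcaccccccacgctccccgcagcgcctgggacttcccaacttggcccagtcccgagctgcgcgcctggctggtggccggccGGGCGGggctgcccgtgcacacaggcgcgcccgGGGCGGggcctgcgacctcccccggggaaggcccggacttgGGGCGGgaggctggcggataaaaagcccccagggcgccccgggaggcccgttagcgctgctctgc
Fbln1: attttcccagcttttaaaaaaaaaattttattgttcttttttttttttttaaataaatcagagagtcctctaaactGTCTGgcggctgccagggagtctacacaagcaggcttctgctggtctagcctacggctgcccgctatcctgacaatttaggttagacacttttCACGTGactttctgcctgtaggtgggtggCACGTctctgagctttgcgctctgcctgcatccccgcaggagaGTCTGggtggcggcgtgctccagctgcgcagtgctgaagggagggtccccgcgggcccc
Fbn1: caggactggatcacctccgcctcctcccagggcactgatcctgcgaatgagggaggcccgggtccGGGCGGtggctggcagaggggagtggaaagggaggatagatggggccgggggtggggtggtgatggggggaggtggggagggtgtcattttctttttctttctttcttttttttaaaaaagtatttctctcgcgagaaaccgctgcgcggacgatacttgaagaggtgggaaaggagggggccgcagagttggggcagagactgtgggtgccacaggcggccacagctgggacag

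**Figure D3:**
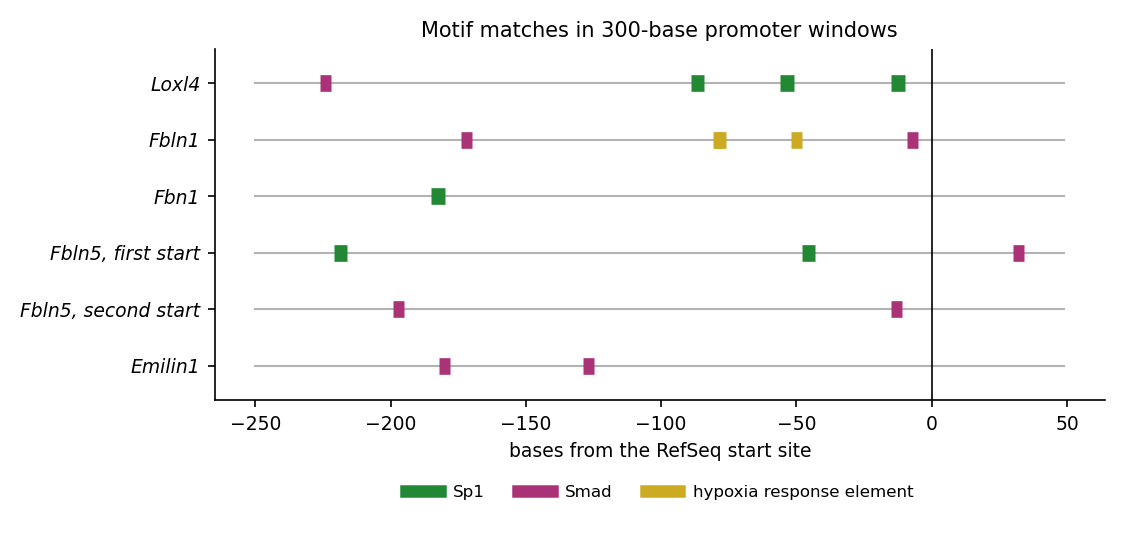
Matches of the searched motifs in the RefSeq promoter windows, by distance from the start site in bases, with 1 row per window. The *Loxl4* window has its 3 Sp1 matches within 89 bases before the start.

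Of the collagens, which are substrates of lysyl oxidases, 7 of 15 were tested, with 5 higher, 1 lower and a median log2 fold change of 1.18. The fibrillar collagen genes *Col1a1*, *Col1a2*, *Col3a1*, *Col5a1* and *Col5a2* were listed at 0 in all 6 libraries, and *Col2a1*, another, was at a low level in both lines (3.41 and 3.91) and not called. Basement membrane collagen IV carried the level of this list: *Col4a1* was at a normalized level of 85.5 ± 3.49 in KSFM-Ca2+ and 266 ± 14.2 in the DKSFM cells (log2 fold change 1.64, adjusted p 2.22e-08, limma). *Col4a2*, whose product joins that of *Col4a1* in the same trimer, had 54.1 ± 2.22 and 114 ± 4.97, and *Col4a5* had 14.5 ± 1.36 and 32.8 ± 0.911. *Col4a4* was also higher at a low level, and with a pseudocount of 1 its log2 fold change of 1.93 was 0.75, under 2-fold (1.29 with quantile normalization). Of the fibrillar type XI genes, *Col11a1* was listed at 0 in each KSFM-Ca2+ library and at 0.9, 1.1 and 0.9 in the DKSFM replicates. *Col11a2* went the other way, from 2.1, 1.7 and 0.9 to 0.3, 0.2 and 0.2, and its log2 fold change of -2.16 was -0.97 with a pseudocount of 1 and -2.81 with quantile normalization.

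Of the genes for maturation of the enzyme and its copper, 14 of 20 were tested, with 3 higher, 1 lower and a median log2 fold change of 0.32. *Postn*, which encodes periostin, a scaffold that brings the lysyl oxidase protease to the matrix, was listed at 0.9, 0.4 and 0.1 in KSFM-Ca2+ replicates 1 to 3 and at 19.1, 21.2 and 15.4 in the DKSFM replicates (log2 fold change 5.45, adjusted p 4.58e-06, limma), with a log2 fold change of 3.87 at a pseudocount of 1 and 6.42 in the combined libraries. *Fn1*, fibronectin, rose from a normalized coverage of 7.55 ± 0.529 to 32.8 ± 2.33. The main protease that cuts the propeptide from *Lox* protein is encoded by *Bmp1*, which was at 155 ± 3.98 and 122 ± 0.621 (log2 fold change -0.34, adjusted p 1.22e-05, limma). Its relative *Tll1* was higher at a low level, with listed values of 0.5, 0.3 and 0.2 and of 1.9, 1.8 and 1.9. *Pcolce2*, an enhancer of procollagen cleavage, fell from 19.2 ± 2.35 to 1.99 ± 0.632. The pump gene *Atp7a*, which brings copper to the enzyme, had a log2 fold change of 0.59 and the chaperone gene *Atox1* one of 0.35 (adjusted p 0.000179 and 1.93e-05, limma). *Cox17*, another copper chaperone gene, had a log2 fold change of -0.26 (adjusted p 0.00185, limma; 0.0106 without DKSFM replicate 1 and 0.102 in the combined libraries), and *Atp7b*, the other copper pump gene, was not tested and was listed at 0.3, 0.3 and 0.2 and at 0 in each DKSFM library. Both lines thus had transcripts for processing the enzyme and for its copper, while *Lox* was above 0 in the DKSFM libraries.

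Of the genes for modification and cross-linking of collagen, 17 of 19 were tested, with 5 higher, 2 lower and a median log2 fold change of -0.17. *Tgm2*, which encodes a transglutaminase that cross-links matrix proteins by another bond, was listed at 2.1, 1.5 and 1.4 in KSFM-Ca2+ replicates 1 to 3 and at 81.8, 83.1 and 80.1 in the DKSFM replicates (log2 fold change 5.67, adjusted p 2.55e-10, limma; 5.06 with a pseudocount of 1). *P3h4*, part of a complex for lysine hydroxylation of collagen, rose from a normalized coverage of 22.2 ± 0.316 to 113 ± 3.30. *P3h1*, *P3h2* and *Fkbp10* were the other 3 that were higher, with *Fkbp10* and *P3h1* missing the threshold in the combined libraries (log2 fold changes 2.70 and 1.31, adjusted p 0.0224 and 0.038, limma). The log2 fold change of *Fkbp10* was 2.48 with all libraries, 1.03 with a pseudocount of 1 and 1.88 with quantile normalization. The proline hydroxylase gene *P4ha1* fell from 42.5 ± 0.630 to 20.6 ± 0.537. *P3h3* was lower too, with a log2 fold change of -1.495 that was -0.92 with a pseudocount of 1. The collagen chaperone gene *Serpinh1* was high in both lines, at 1026 ± 20.02 and 994 ± 12.9, and overlapped between them, while *P4hb*, a subunit of the proline hydroxylase, was at 454 ± 1.43 and 401 ± 6.52 (adjusted p 0.000193, and 0.0133 in the combined libraries, limma).

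Of the receptors and proteases of these fibres, 18 of 25 were tested, with 5 higher, 1 lower and a median log2 fold change of 0.22. *Mmp12*, which encodes macrophage elastase, was listed at 1.3, 0.9 and 0.3 in KSFM-Ca2+ replicates 1 to 3 and at 73.8, 83.2 and 68.5 in the DKSFM replicates (log2 fold change 6.63, adjusted p 2.25e-07, limma), with a log2 fold change of 5.52 at a pseudocount of 1 and 7.41 in the combined libraries. *Mmp10* and *Mmp2*, which encode further matrix proteases, were higher as well. *Timp3*, an inhibitor of such proteases that binds to matrix, was listed at 0 in each KSFM-Ca2+ library and at 1.7, 2 and 2 in the DKSFM replicates, and *Itgb8* at 0 and at 0.7, 1 and 0.8. With a pseudocount of 1 *Itgb8* was no longer called. *Itgb6*, whose integrin activates latent TGF-beta, fell from a normalized coverage of 78.6 ± 4.72 to 20.8 ± 1.36 (log2 fold change -1.92, adjusted p 4.4e-08, limma). The most abundant genes of this list were *Ctsl*, a lysosomal protease, at 567 ± 9.65 and 295 ± 14.2, and the inhibitor gene *Timp2*, at 251 ± 4.44 and 318 ± 5.79.

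Of the TGF-beta genes and regulators known to act on *Lox*, 19 of 22 were tested, with 4 higher, 3 lower and a median log2 fold change of -0.38. *Epas1*, which encodes a hypoxia-inducible factor, was listed at 1.7, 0.8 and 1.1 in KSFM-Ca2+ replicates 1 to 3 and at 98.6, 99.6 and 102.2 in the DKSFM replicates (log2 fold change 6.44, adjusted p 1.34e-08, limma; 5.64 with a pseudocount of 1). Its relative *Hif1a* was at a normalized coverage of 770 ± 75.6 and 589 ± 32.9, a log2 fold change of -0.38 (adjusted p 0.00131, limma) that did not pass in the combined libraries (-0.22, adjusted p 0.067, limma). *Zeb2*, a repressor of epithelial genes, was listed at 0.8, 1.3 and 0.5 and at 5.5, 6.4 and 5.9, and *Snai2* was also higher. *Tgfb2* was called at a low level, listed at 0.2, 0.1 and 0 and at 0.5, 0.7 and 0.7. Its log2 fold change of 2.14 was 0.99 with a pseudocount of 0.5 and 0.61 with 1. It was 1.43 with quantile normalization (adjusted p 0.02, limma), and *Tgfb2* was called in none of these alternatives. With the combined libraries its log2 fold change kept its sign and was larger, at 2.82. The ligand gene *Tgfb1* fell from a normalized coverage of 59.7 ± 0.140 to 22.7 ± 2.38 (log2 fold change -1.40, adjusted p 5.04e-07, limma). *Tgfbr3*, a co-receptor, was also lower. *Yap1*, a co-activator of stretched cells, was at 199 ± 3.51 and 242 ± 6.06.

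**Figure D4:**
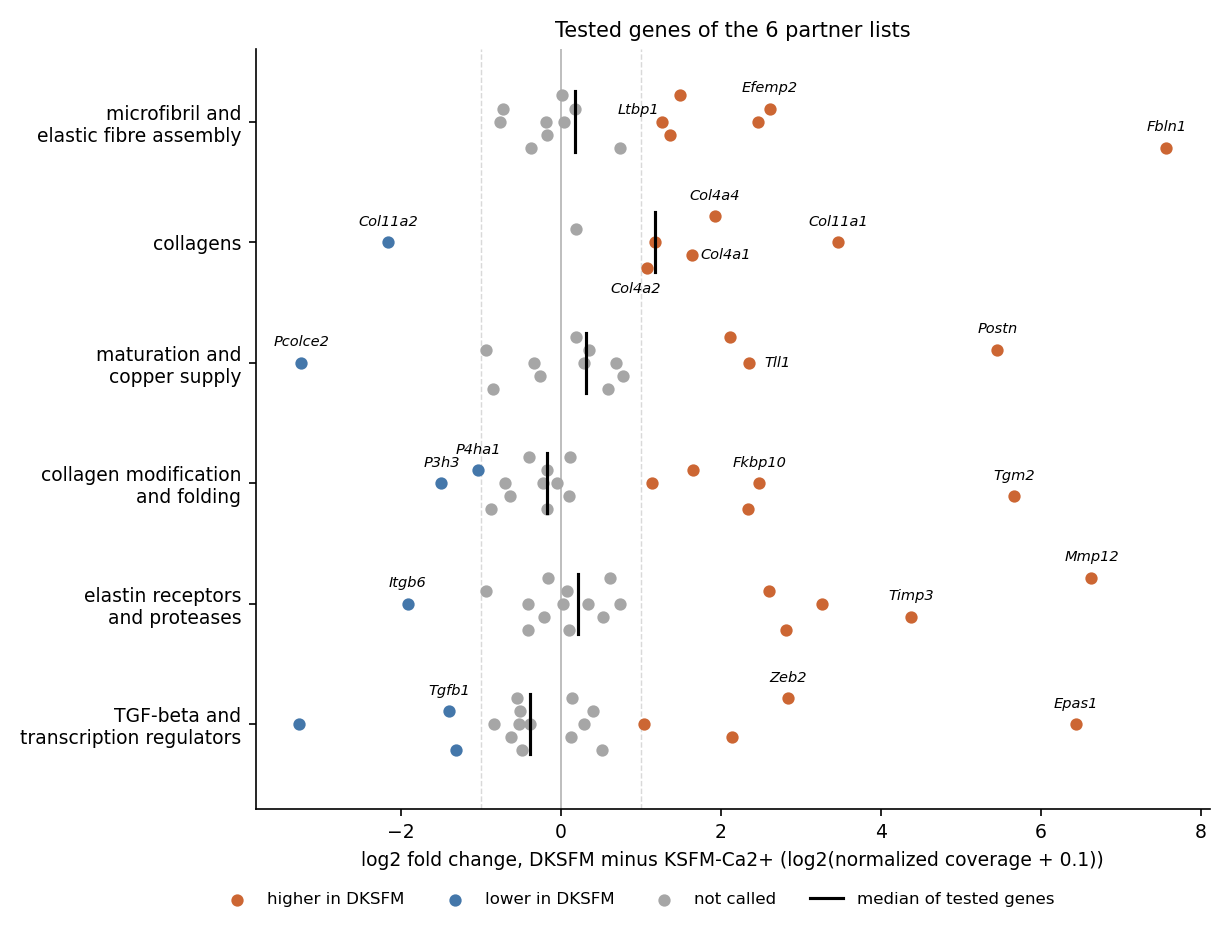
Log2 fold change (DKSFM minus KSFM-Ca2+) of the tested partner genes by list, with 1 point per gene and a bar at the list median. *Col11a1*, *Itgb8* and *Timp3*, listed at 0 in KSFM-Ca2+ cells, are drawn at fitted values that depend on the pseudocount, and the list medians lie between -0.38 and 1.18.

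Most markers of fibroblasts, which make most *Lox* and elastin in skin, were at 0. The summed normalized coverage of 11 fibroblast markers was 8.81, 8.17 and 8.36 in the KSFM-Ca2+ libraries and 2.44, 2.20 and 2.23 in the DKSFM replicates. Of these 11, 8 were at 0 in all 6 libraries (*Pdgfrb*, *Col1a1*, *Col1a2*, *Col3a1*, *Dcn*, *Lum*, *Thy1* and *Fap*), and the most abundant was *Twist2*, at 7.33 and 0.0354. *Pdgfra* made up most of the DKSFM sum and was higher there, at 1.11 ± 0.207 and 2.22 ± 0.119 (log2 fold change 0.95, adjusted p 0.000747, limma; 1.07 and past 2-fold without KSFM-Ca2+ replicate 3, and adjusted p 0.0124 in the combined libraries), and its part in the result was not tested. Smooth muscle and pericyte markers summed to 0.919, 0.689 and 1.30 and to 0.8504, 0.400 and 0.530, with *Cnn1* and *Actg2* at 0. *Des*, the most abundant, was at means of 0.682 and 0.0354, while *Acta2* (0.149 and 0.281), *Tagln* (0.0720 and 0.173) and *Myh11* (0 and 0.104) had higher means in DKSFM, and none of these was tested. Endothelial markers had sums of 2.83, 3.15 and 3.30 and of 8.29, 8.30 and 7.42, most of it *Pecam1*, the 1 tested marker of 6 and called higher, with *Cdh5*, *Emcn* and *Vwf* at 0. Its part in the result was not tested. Melanocyte markers summed to 0.536, 0.886 and 0.706 and to 0.319, 0.7004 and 0.212, with *Pmel* the most abundant and *Tyr* and *Dct* at 0. Immune markers summed to 1.38, 1.67 and 2.24 and to 0.8504, 0.5003 and 0.636, with *Cd3e* at 0. *Cd74*, the most abundant, was at 0 in each DKSFM library, and *Fcer1g*, most of the DKSFM sum, was at 0.137 ± 0.0861 and 0.595 ± 0.277 without overlap.

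All 8 keratinocyte markers were measured, and all but *Krt15*, which was far lower in the KSFM-Ca2+ cells, were high in both lines. Their summed normalized coverage was 19170, 19381 and 19072 in the KSFM-Ca2+ libraries and 45398, 41451 and 45703 in the DKSFM replicates, most of it *Krt14*, a keratin of basal cells. *Krt14* was at 11965 ± 168 and 29742 ± 1502, and *Trp63*, the regulator of the basal keratinocyte state, at 404 ± 13.0 and 443 ± 12.2. *Krt5* (4681 and 11156), *Krt15* (13.6 and 392), *Itga6* (258 and 285), *Itgb4* (321 and 192), *Col17a1* (1421 and 1835) and *Cdh3* (144 and 138) made up the rest. The line with *Lox* was thus also the one with more keratin transcript, and the part of this in the result was not tested.

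**Figure D5:**
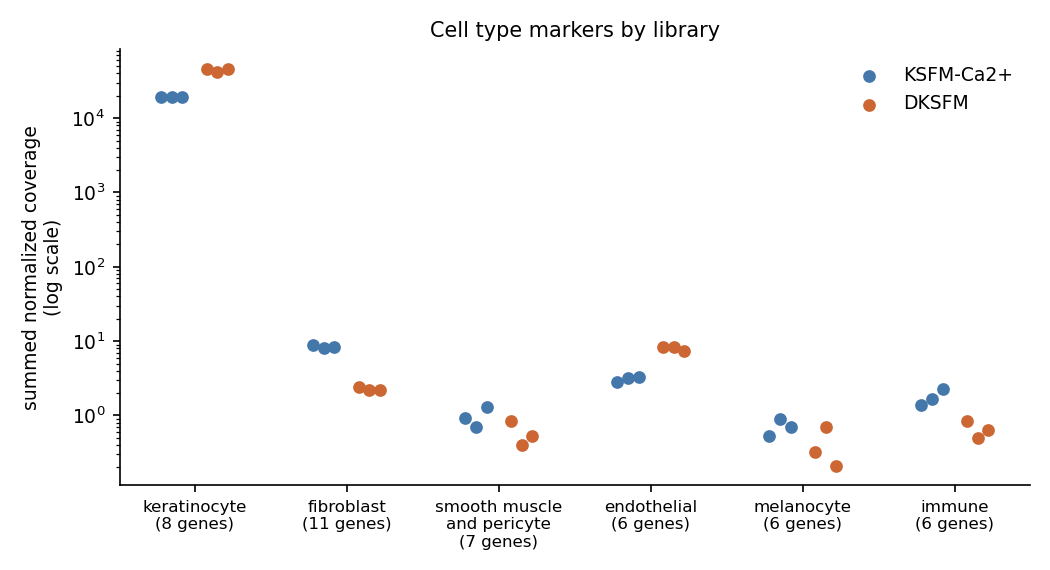
Summed normalized coverage of each cell type's markers on a log axis, with 1 point per library. The keratinocyte sums start at 19072, and the sums of the other 5 lists lie below 9.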

How the data were processed

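RNA-seq was measured in 3 KSFM-Ca2+ and 3 DKSFM libraries. According to the study, the authors made directional poly(A) libraries, sequenced single reads of 85 bases and aligned them to the mouse genome (mm10). The deposited values used here are signal, the mean read coverage per base of each RefSeq gene to 1 decimal, not scaled to library size; how it was computed is not stated. Coverage was scaled with trimmed mean of M values factors computed by hand (trim of 30% on M and 5% on A). Genes that reached a normalized value of 0.5 in 3 or more libraries were kept, and log2(normalized coverage + 0.1) was fitted with limma 3.58.1 in R 4.3.3, with an intensity trend and p-values adjusted over all 12450 genes by Benjamini and Hochberg. Called genes were at least 2-fold apart with an adjusted p under 0.01. File names of every DKSFM library and of KSFM-Ca2+ replicate 3 hold the word combined, whose meaning is not given. The members and lists were chosen with earlier results of these data known. Named were the 10 members, in each list the 2 called genes with the largest log2 fold change in each direction and the 2 most abundant genes, the keratinocyte markers and the top marker of each other cell type, and the 5 genes nearest to *Lox*, with 1 gene of the lists left unnamed. Other genes named, the motifs, the reference genes and the printed promoters were chosen after their values were seen. Of the listed partner symbols, *Hmcn2* is not in the files. Scaling, filter, pseudocount, trend, threshold, replicate block and left-out libraries were varied.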

Additional observations from a re-analysis of the deposited data

How the results depend on the processing

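The counts of genes higher and lower in DKSFM cells, 1655 and 1303, stayed within 1.5 times under each alternative but 1. With a filter of 0.5 in every library, 1035 genes and 17 partner genes were higher, where fewer genes (11124) were tested. The log2 fold change of *Loxl4*, 4.88, was 4.496 with a pseudocount of 0.5 and 4.13 with 1, since a larger pseudocount shrinks folds of low values. With a replicate block, 1658 genes were higher and 1301 lower, partner genes numbered 28 and 8, and *Loxl4* had 4.88. Leaving out each library in turn gave 1607 to 1717 genes higher, 1286 to 1326 lower, 28 to 28 partner genes higher, 8 to 9 lower, and 4.73 to 4.97 for *Loxl4*. Of the called partner genes, *Col4a4*, *Col11a2*, *P3h3*, *Itgb8* and *Tgfb2* were no longer called with a pseudocount of 1, and *Tgfb2* also with 0.5 and with quantile normalization. With the combined libraries alone, 1 of KSFM-Ca2+ and 3 of DKSFM, *Fkbp10* and *P3h1* missed the threshold, at log2 fold changes of 2.70 and 1.31; *Cox17*, *P4hb*, *Hif1a*, *Srfbp1* and *Pdgfra*, under 2-fold, also had an adjusted p above 0.01 in limma; there the lone library is assumed to vary like the others. The alternatives for genes outside the named genes rule were added after seeing the data. The planned fold of *Lox* was computed and is not given, since it is set by the pseudocount where a line is listed at 0, and the 8 members that were not tested have none. In its place, chosen after seeing the data, the normalized coverage of *Lox* in DKSFM cells was 353 to 362 when each DKSFM library was left out. The signs of the list medians were the same under each scaling tried. Steps of 0.1 in the files limit what can be said of values near 0.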

Other observations

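Among 12 genes often used as references, a list made after some values were seen, *Gusb*, which encodes the lysosomal enzyme beta-glucuronidase, was listed at 54.9, 41.3 and 38.7 in KSFM-Ca2+ replicates 1 to 3 and at 0.1, 0.1 and 0.2 in the DKSFM replicates. Its normalized coverage was 42.7 ± 2.54 and 0.139 ± 0.0629 (SD, n = 3), a log2 fold change of -7.51 (SE 0.18, adjusted p 8.46e-09, limma), and the lines did not overlap. With a pseudocount of 1 in place of 0.1 the log2 fold change was -5.26, and with 0.5 it was -6.08.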
